A study of Mus musculus with 21 samples.

Results

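ADAM3 is a sperm surface protein of the ADAM family, and the 9 genes described here encode proteins that fold it, process it or are needed for its presence on sperm. They were chosen by name, as the testis chaperones of the endoplasmic reticulum and the partners that mature ADAM3, out of 24456 genes counted in each of 21 RNA-seq libraries. They are *Clgn*, *Calr3*, *Pdilp*, *Tex101*, *Prss37*, *Ace*, *Tpst2*, *Calr* and *Canx*. The symbol *Pdilp* is listed in no library, and *Pdilt*, the disulfide isomerase-like gene of the testis, was used in its place. The other 8 genes are listed under their own symbols.

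The libraries come from fractionated mouse spermatogenic cells, either wild-type or *H2al2* KO, a line that lacks the histone variant H2A.L.2. Pachytene spermatocytes, round spermatids and condensing spermatids had 3 wild-type and 3 *H2al2* KO libraries each, spermatozoa had 2 wild-type libraries and 1 *H2al2* KO library, and no other allele or agent is named in the labels. Neither the age of the animals nor the number pooled per library is given in the sources used here. The published work treats the wild-type round spermatid libraries as independent biological replicates, and for the others nothing says that they came from separate animals, so p-values measure only the spread between these samples.

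Many membrane and secreted proteins of sperm are made in the endoplasmic reticulum of spermatocytes and spermatids, where lectin chaperones hold glycoproteins until they are folded. Calnexin, from *Canx*, and calreticulin, from *Calr*, do this in all tissues, and the testis has a relative of each, calmegin from *Clgn* and calsperin from *Calr3*. Male mice that lack calmegin, calsperin, PDILT, TEX101, PRSS37, testis ACE or TPST2 are known for sperm that fail to pass into the oviduct, and in most of these mutants ADAM3 is missing from mature sperm or altered.

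Counts on genes ranged from 5799060 to 8201682 in the 18 libraries of the 3 stages, and from 2772995 to 3450580 in spermatozoa. Levels below are normalised CPM (reads of a gene relative to the library's total on genes), scaled with trimmed means of M-values over all 21 libraries. The targeted gene, listed as *H2afb1*, lay between 200.6 and 211.6 CPM in wild-type round spermatids and between 20.7 and 25.4 CPM in *H2al2* KO round spermatids. In pachytene spermatocytes it was 40.5, 36.4 and 14.5 CPM in wild type and at most 4.91 CPM in KO, so wild-type pachytene replicate 3 stood apart from the other two. Wild-type round replicates 2 and 3 were close to each other, with a mean chi-square of 1.06 per gene with 100 to 1000 reads, where counting alone gives 1, and of 8.76 per gene with over 10000 reads. Other pairs of replicates had at least 1.9 and 65.9. These 2 libraries were kept as separate samples, and results were also computed with their counts summed. Marker genes separated pachytene from round libraries, and some sums but not all separated condensing from round libraries. The summed level of 10 spermatocyte genes was 1735 to 2495 CPM in wild-type pachytene libraries, 381 to 508 CPM in round and 787 to 976 CPM in condensing libraries. The sum of 8 elongating spermatid genes, at 26717 to 29408 CPM in round and 27214 to 40047 CPM in condensing libraries, overlapped between these stages. That of 7 round spermatid genes, at 1350 to 1531 CPM in round and 740 to 816 CPM in condensing wild-type libraries, did not. Wild-type condensing fractions also held 402 to 511 CPM of 10 Sertoli cell genes, against 34.7 to 53.5 CPM in round spermatids. *Clu* gave 245 to 324 CPM of the condensing sum. *Amh* overlapped between these stages, and the other genes were higher in condensing libraries. Wild-type spermatozoa held 1128 to 1184 CPM of 7 macrophage genes and 1814 to 1928 CPM of 8 epididymis genes. *Cd74* gave 846 to 906 CPM of the macrophage sum, and each of its other genes at most 78.8 CPM. The epididymis sum came almost wholly from *Crisp1* (1494 to 1591 CPM) and *Adam7* (313 to 337 CPM). *Lcn5*, *Lcn8* and *Lcn9* were at 0, and *Defb20*, *Rnase10* and *Spink11* at most at 4.12 CPM. In such bulk fractions, fewer cells of a type and less RNA per cell cannot be told apart.

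Per kilobase of exon, *Clgn* was the most abundant of the 9 in wild-type round spermatids, at 193 ± 3.11 CPM per kb (SD, n = 3). *Ace* at 141 ± 2.49 and *Calr* at 140.1 ± 7.84 CPM per kb came next and overlapped. *Pdilt* at 127 ± 6.87 and *Prss37* at 125 ± 9.86 CPM per kb overlapped each other and lay below the libraries of *Ace* and *Calr*. *Calr3* at 61.5 ± 6.72, *Canx* at 41.1 ± 0.552 and *Tex101* at 19.3 ± 2.94 CPM per kb followed without overlap. *Tpst2*, which encodes the Golgi enzyme that sulfates tyrosines, was by far the lowest at 0.349 ± 0.0443 CPM per kb, from 6 to 8 reads a library.

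**Figure D1:**
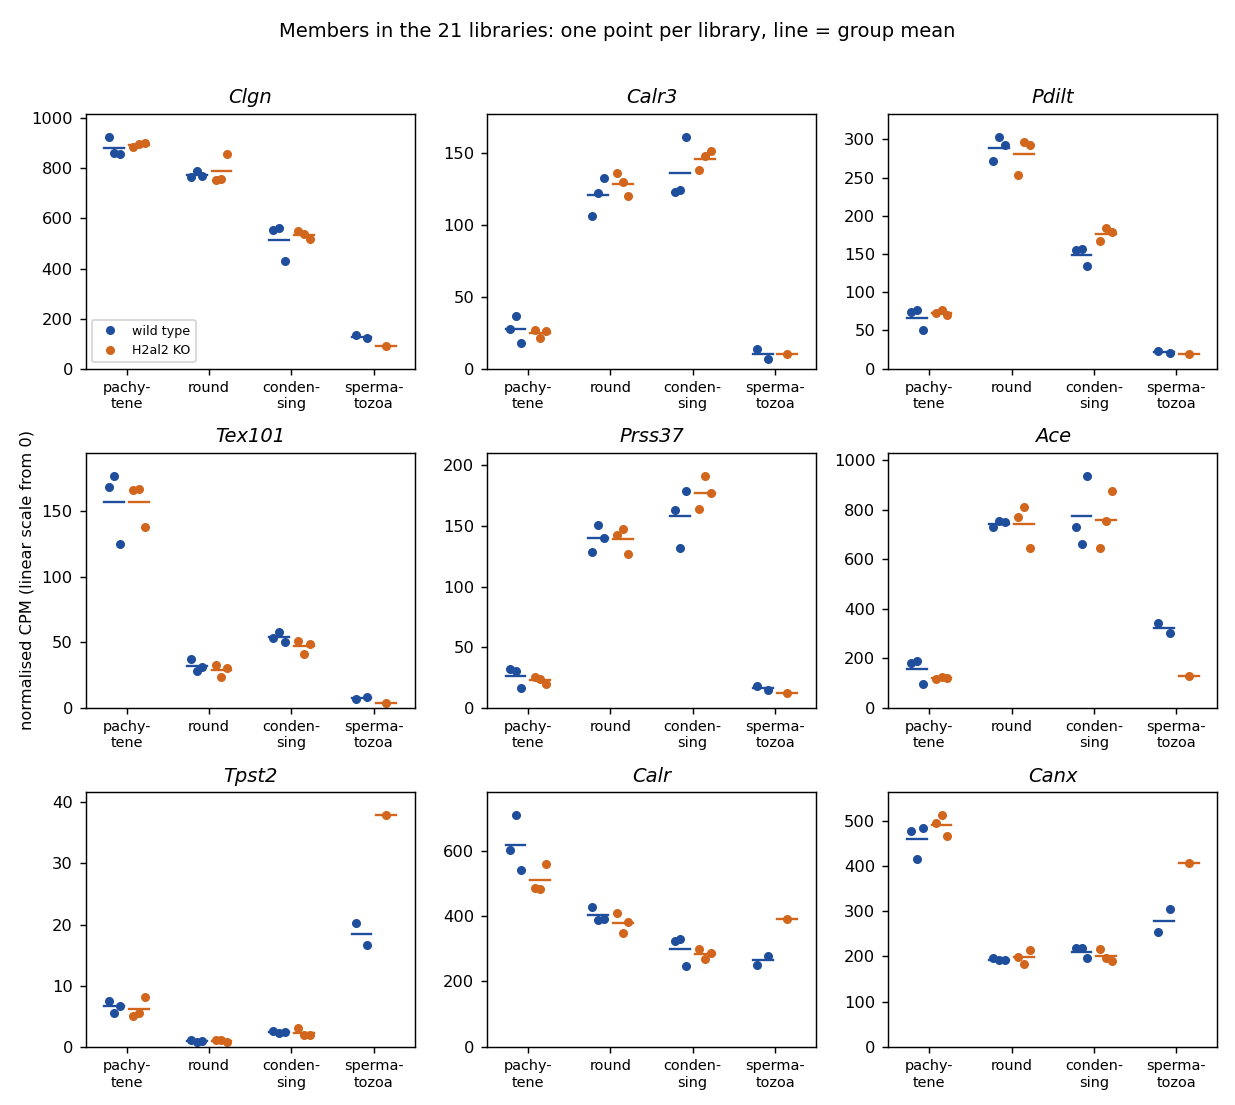
Normalised CPM (linear axis from 0) of each of the 9 genes in pachytene spermatocytes, round spermatids, condensing spermatids and spermatozoa. Each point is 1 library, blue for wild type and orange for *H2al2* KO, and short lines are group means. Wild-type and KO points overlap in most panels of the 3 stages but not for *Pdilt* in condensing spermatids, while *Calr3*, *Pdilt*, *Prss37* and *Ace* are low in pachytene spermatocytes and high in round spermatids, and *Tex101*, *Tpst2*, *Calr* and *Canx* are higher in pachytene spermatocytes.

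The testis chaperones did not share a time course. *Clgn* (chromosome 8, 83389867 to 83428552, plus strand, mm10) was already at 925, 862 and 859 CPM in the 3 wild-type pachytene libraries. It was at 768, 790.0 and 769 CPM in round spermatids and at 552, 563 and 431 CPM in condensing spermatids. Each stage lay below the one before without overlap, but the first step was small, with a log2 fold change of -0.16 (95% interval -0.43 to 0.11, edgeR's quasi-likelihood test, Benjamini-Hochberg adjusted p = 0.257). It was called with library size as the only scaling (-0.35, edgeR adjusted p = 0.0317), which moved the median of all genes to -0.20. *Clgn* then fell by 0.56 on the log2 scale between round and condensing spermatids (interval -0.83 to -0.29, edgeR adjusted p = 0.00258).

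*Calr3* (chromosome 8, 72424176 to 72443870, minus strand) was at 27.5, 36.4 and 18.1 CPM in pachytene spermatocytes, and at 107, 123 and 133 CPM in round spermatids. All round spermatid libraries lay far above all pachytene libraries, with a log2 fold change of 2.16 (interval 1.70 to 2.61, edgeR adjusted p = 1.1e-06). In condensing spermatids it was at 123, 124 and 161 CPM, which overlapped the round spermatid libraries (log2 fold change 0.20, interval -0.22 to 0.63, edgeR adjusted p = 0.413).

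*Pdilt* (chromosome 7, 119486587 to 119523489, minus strand) encodes a disulfide isomerase-like protein that works with calsperin. It was at 73.7, 76.1 and 50.5 CPM in pachytene spermatocytes and at 272, 303 and 293 CPM in round spermatids, a log2 fold change of 2.14 (interval 1.81 to 2.47, edgeR adjusted p = 1.06e-07). In condensing spermatids it was at 155, 157 and 135 CPM. Unlike *Calr3*, which stayed high, *Pdilt* thus fell by 0.93 on the log2 scale after the round spermatid stage (interval -1.25 to -0.61, edgeR adjusted p = 0.000259), to 51.5% of its mean in round spermatids. The difference between the time courses of the 2 genes was not tested.

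The general chaperones started high. *Calr* (chromosome 8, 84841850 to 84846934, minus strand) was at 604, 709 and 543 CPM in pachytene spermatocytes, at 430.0, 389 and 392 CPM in round spermatids and at 325, 331 and 246 CPM in condensing spermatids. It fell by 0.59 on the log2 scale at the first step (interval -0.90 to -0.29, edgeR adjusted p = 0.00219) and by 0.40 at the second (interval -0.71 to -0.09, edgeR adjusted p = 0.0333). The second call was lost when any 1 round spermatid library or condensing replicate 3 was left out, with log2 fold changes from -0.43 to -0.28 and edgeR adjusted p between 0.0622 and 0.0958. It was also lost with round replicates 2 and 3 summed (-0.44, edgeR adjusted p = 0.0584). *Canx* (chromosome 11, 50293961 to 50325673, minus strand) was at 479, 417 and 484 CPM in pachytene spermatocytes and at 196, 191 and 191 CPM in round spermatids. All 3 round spermatid libraries lay far below every pachytene library, and the log2 fold change was -1.23 (interval -1.48 to -0.98, edgeR adjusted p = 7.96e-07). Condensing spermatids, at 218, 218 and 196 CPM, were not called different from round spermatids (log2 fold change 0.16, edgeR adjusted p = 0.275).

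Set beside their general relatives per kilobase, *Clgn* and *Calr3* were at their highest ratios after meiosis. The ratio of *Clgn* to *Canx* was 2.24 ± 0.172 in wild-type pachytene spermatocytes, 4.69 ± 0.12 in round spermatids and 2.84 ± 0.238 in condensing spermatids (SD, n = 3), and it was 0.461 and 0.616 in the 2 spermatozoa libraries. The ratio of *Calr3* to *Calr* was 0.0637 ± 0.0135, 0.441 ± 0.069 and 0.69 ± 0.235 in the 3 stages (SD, n = 3), and 0.0335 and 0.0807 in spermatozoa. *Clgn* RNA therefore exceeded *Canx* RNA per length in every library of the 3 stages, whereas *Calr3* RNA stayed below *Calr* RNA in every library.

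**Figure D2:**
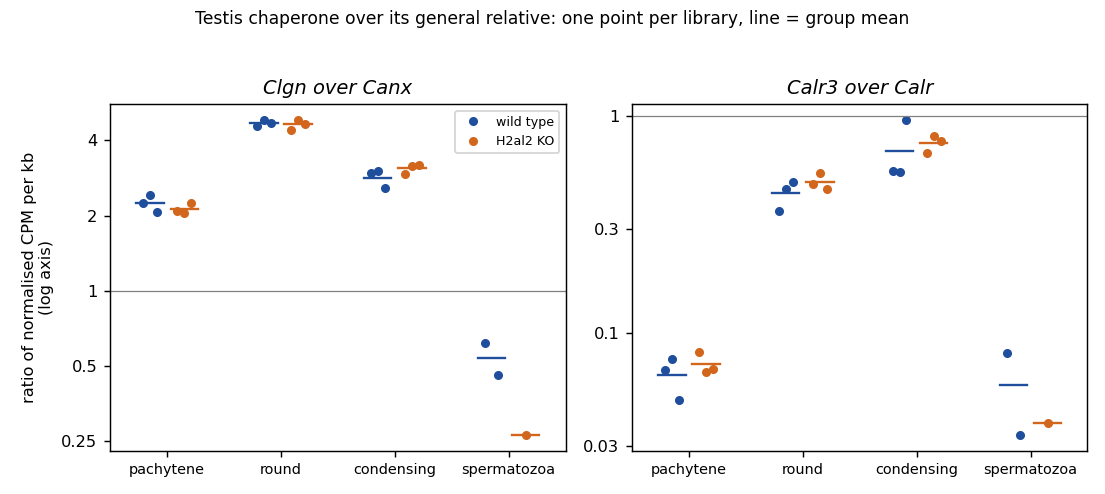
Ratio of normalised CPM per kilobase (log axis) of *Clgn* to *Canx* on the left and of *Calr3* to *Calr* on the right, by stage. Each point is 1 library, blue for wild type and orange for *H2al2* KO, short lines are group means, and the grey line marks equal levels. *Clgn* over *Canx* is highest in round spermatids (wild-type mean 4.69) and *Calr3* over *Calr* in condensing spermatids (wild-type mean 0.69), and both ratios are lowest or near their lowest in spermatozoa.

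Promoter windows were then searched for motifs. RefSeq windows of GRCm38.p6 from 250 bases before to 50 bases after the annotated start were held for 8 of the 9 genes, *Clgn* being the exception, in 12 entries. The 3 motifs, chosen with the sequences in view, were searched on both strands. They are the full cAMP response element TGACGTCA, its variant TGAGGTCA, and the endoplasmic reticulum stress element, CCAAT and then CCACG with any 9 bases between them. The first was in 1.79% of 32851 mouse windows and in 0 of the 12 entries. The second was in 2.17% of all windows and in 2 of the 12 entries, *Calr3* and the start inside *Ace* that is known to make the testis form of the protein. The third was in 0.119% of all windows and in 2 of the 12 entries, those of *Calr* and *Canx*. It was also in the window of *Hspa5*, which encodes BiP, the main chaperone of the endoplasmic reticulum. The stretches below hold these matches and are shown, each read 5′ to 3′ on the gene's strand, so that the matches can be read in their context; capitals mark the bases fixed by the motif, and in *Calr* the motif lies on the opposite strand.
Ace internal start, chr11:105975069-105975188, plus strand: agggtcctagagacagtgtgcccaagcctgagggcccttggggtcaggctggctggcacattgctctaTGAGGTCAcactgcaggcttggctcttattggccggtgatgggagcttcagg
Calr3, chr8:72443899-72444018, minus strand: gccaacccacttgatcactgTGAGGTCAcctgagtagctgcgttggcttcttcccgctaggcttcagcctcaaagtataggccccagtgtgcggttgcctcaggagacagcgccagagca
Calr, chr8:84847012-84847131, minus strand: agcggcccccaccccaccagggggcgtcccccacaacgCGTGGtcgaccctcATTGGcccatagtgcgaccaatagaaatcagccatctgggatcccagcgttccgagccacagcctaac
Canx, chr11:50325744-50325863, minus strand: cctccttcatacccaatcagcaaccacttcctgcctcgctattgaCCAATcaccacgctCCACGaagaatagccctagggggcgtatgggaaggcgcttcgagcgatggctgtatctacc
Hspa5, chr2:34771970-34772089, plus strand: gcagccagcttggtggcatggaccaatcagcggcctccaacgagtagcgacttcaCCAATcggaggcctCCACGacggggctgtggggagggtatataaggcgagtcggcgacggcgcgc
The matches begin at -52 from the start in *Ace*, -220 in *Calr3*, -162 in *Calr*, -145 in *Canx* and -65 in *Hspa5*. *Pdilt* and *Prss37* held 0 matches of any of the 3. Since the motifs were chosen with these sequences in view, the matches describe the letters in the windows and say nothing about binding in these cells.

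Of the partners that act after folding, *Ace* and *Prss37* rose with *Calr3* and *Pdilt*. *Ace* (chromosome 11, 105967945 to 105989964, plus strand) encodes angiotensin-converting enzyme, a peptidase whose testis form also releases anchored proteins such as TEX101 from the sperm surface. It was at 179, 189 and 96.7 CPM in wild-type pachytene spermatocytes and at 729, 753 and 750.0 CPM in round spermatids (log2 fold change 2.29, interval 1.81 to 2.76, edgeR adjusted p = 1.04e-06). The gene counts do not separate the testis form from the somatic form. *Prss37* (chromosome 6, 40514824 to 40519508, minus strand), for a protease-like protein, was at 32.2, 30.6 and 16.4 CPM and then at 129, 151 and 140.2 CPM (log2 fold change 2.42, interval 1.97 to 2.88, edgeR adjusted p = 4.77e-07). In both genes every round spermatid library lay far above every pachytene library. From round to condensing spermatids neither was called, with *Ace* at 731, 662 and 935 CPM and *Prss37* at 163, 132 and 179 CPM in condensing spermatids.

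*Tex101* and *Tpst2* took the opposite course. *Tex101* (chromosome 7, 24668007 to 24676675, minus strand) encodes a lipid-anchored germ cell glycoprotein that binds ADAM3 in the testis. It was at 168, 176 and 125 CPM in wild-type pachytene spermatocytes and at 37.3, 27.7 and 30.9 CPM in round spermatids, so that it fell by 2.27 on the log2 scale (interval -2.60 to -1.93, edgeR adjusted p = 7.78e-08). It was at 52.9, 57.3 and 50.4 CPM in condensing spermatids, all above the round spermatid libraries (log2 fold change 0.77, interval 0.43 to 1.1, edgeR adjusted p = 0.00136). *Tpst2* (chromosome 5, 112276691 to 112315361, plus strand) was at 7.53, 5.57 and 6.72 CPM in pachytene spermatocytes, at 1.07, 0.836 and 1.02 CPM in round spermatids and at 2.61, 2.32 and 2.46 CPM in condensing spermatids. The fitted log2 fold changes were -2.71 at the first step and 1.35 at the second. With 6 to 8 reads per round spermatid library, *Tpst2* passed the filter on low counts through its levels in the other 2 stages and so had to differ, and these values are given as a description, without the test. The sum of the 10 spermatocyte genes also stood higher in wild-type condensing than in round libraries, as did that of Sertoli cell genes (ranges above). Among the 10, *Dmc1* was lower in condensing libraries (7.72 to 8.998 CPM against 9.34 to 10.7 CPM). *Spo11* overlapped, at 25.6 to 36.3 CPM in condensing and 35.3 to 39.98 CPM in round libraries, and the others were higher. The sum of 6 Leydig cell genes was 135 to 203 CPM against 10.1 to 12.8 CPM. The part of other cells in the higher *Tex101* and *Tpst2* of condensing spermatids was not tested.

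Counted together, 4 of the 9 genes were called higher and 4 lower, or 3 lower without *Tpst2*, between wild-type pachytene spermatocytes and round spermatids, in a comparison in which 70.3% of all 14011 genes tested were called, 34.4% higher and 35.9% lower. With most genes called, nothing particular to the 9 is read from this share. The same 8 genes were called, in the same directions, without wild-type pachytene replicate 3, which held the lowest *Ace*, *Calr3*, *Prss37*, *Pdilt* and *Tex101* of its group. The log2 fold changes were then 2.03 for *Ace*, 1.94 for *Calr3*, 2.18 for *Prss37*, 1.97 for *Pdilt* and -2.41 for *Tex101*. Between round and condensing spermatids 2 genes, or 1 without *Tpst2*, were called higher and 3 lower, where 50% of all genes were called, 28.3% higher and 21.8% lower.

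The stage differences were measured again in the 9 *H2al2* KO libraries. From pachytene to round spermatids 4 genes were called higher and 4 lower, or 3 lower without *Tpst2* (74.9% of all genes were called, 36.5% higher and 38.4% lower), and *Clgn* was again not called (log2 fold change -0.20, edgeR adjusted p = 0.0601). *Calr3* rose by 2.35, *Pdilt* by 1.93, *Prss37* by 2.57 and *Ace* by 2.61 on the log2 scale, with edgeR adjusted p of at most 2.79e-12. From round to condensing spermatids 3 genes, or 2 without *Tpst2*, were called higher and 3 lower (54.2% of all genes were called, 29.7% higher and 24.5% lower). *Prss37* was the addition to the wild-type calls, with a log2 fold change of 0.37 (interval 0.15 to 0.59, edgeR adjusted p = 0.0064) against 0.20 (interval -0.22 to 0.63) in wild type. It lost its call without KO round replicate 3 (0.28, edgeR adjusted p = 0.0572). *Tpst2*, with 5 to 8 reads per KO round spermatid library, is again given as a description, without the test. Its log2 fold change was 1.25, and it was 1.06 without KO round replicate 3 and 0.98 without KO condensing replicate 1. *Clgn* was called in the earlier comparison without KO round replicate 3 (-0.25, edgeR adjusted p = 0.0451).

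**Figure D3:**
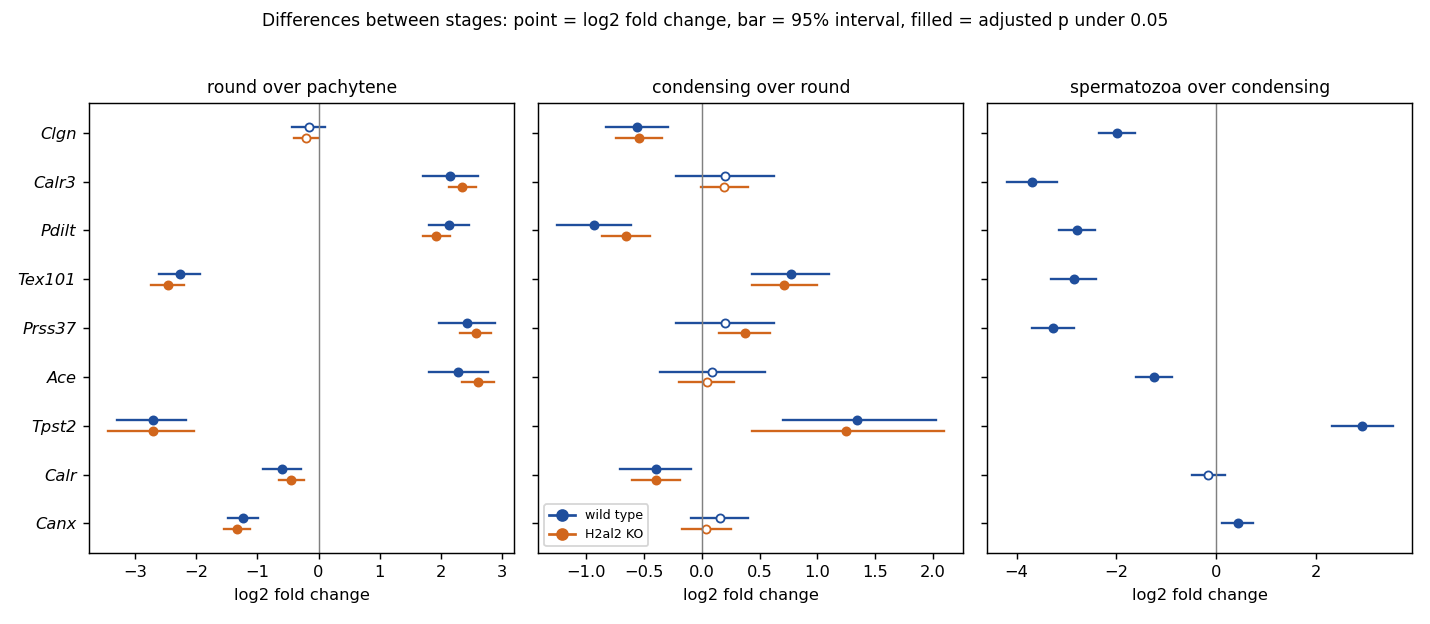
Log2 fold changes of the 9 genes between successive stages (x axis, a separate scale in each panel), with bars for 95% intervals, blue for wild type and orange for *H2al2* KO. Filled points have an edgeR adjusted p under 0.05, which for *Tpst2* in the first 2 panels is not read as a test because of its low counts. In the first panel *Calr3*, *Pdilt*, *Prss37* and *Ace* lie to the right of 0 and *Tex101*, *Tpst2*, *Calr* and *Canx* to the left, in both genotypes.

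In spermatozoa most of the 9 RNAs were lower than in condensing spermatids. Between wild-type condensing spermatids and spermatozoa 6 genes fell and 2 rose, in a comparison in which 72.4% of 15116 genes were called, 36.6% higher and 35.8% lower. *Calr3* fell furthest, to 13.8 and 6.35 CPM (47 and 18 reads), a log2 fold change of -3.69 (interval -4.20 to -3.19, edgeR adjusted p = 2.35e-11). The 2 spermatozoa libraries differed in *Calr3*, and the value was -4.39 without replicate 1 and -3.26 without replicate 2. *Prss37*, at 17.6 and 14.5 CPM, *Tex101*, at 6.76 and 7.76 CPM, *Pdilt*, at 22.4 and 19.8 CPM, and *Clgn*, at 135 and 120.3 CPM, were at 10.2% to 24.7% of their means in condensing spermatids. *Ace* kept more of its level, at 340.3 and 303 CPM or 41.4% of the condensing mean (log2 fold change -1.24, edgeR adjusted p = 1.99e-06).

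The 2 genes that rose were *Tpst2*, at 20.3 and 16.6 CPM (log2 fold change 2.92, interval 2.32 to 3.55, edgeR adjusted p = 1.53e-08), and *Canx*, at 255 and 304 CPM (0.43, interval 0.13 to 0.74, edgeR adjusted p = 0.0114). The call of *Canx* was lost without wild-type spermatozoa replicate 2 (0.31, edgeR adjusted p = 0.185). *Calr*, at 251 and 278 CPM, was not called (-0.16, edgeR adjusted p = 0.385), and it was called lower without wild-type condensing replicate 3 (-0.28, edgeR adjusted p = 0.025). In the single *H2al2* KO spermatozoa library *Tpst2* was at 37.8, *Calr* at 391 and *Canx* at 406 CPM, above both wild-type libraries, and *Ace* at 129 and *Clgn* at 92.0 CPM, below both. With 1 KO library this difference has no replicate check. The 7 macrophage genes summed to 3209 CPM in that library and to 1128 to 1184 CPM in wild-type spermatozoa, and 8 elongating spermatid genes to 10872 CPM against 29350 to 32925 CPM. The part of other cells in the levels of *Tpst2*, *Calr* and *Canx* was not tested.

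The labels set *H2al2* KO against wild type, and within the 3 stages no difference between them was called for any of the 9 genes. In pachytene spermatocytes 0 of 9 were called (edgeR, 0% of 12236 genes tested) and 0 had an unadjusted p under 0.05, against 815 or 6.66% of all genes. The targeted gene itself was not called there (log2 fold change -2.75, edgeR adjusted p = 0.484), and it was called in 4 of 11 alternatives. A lack of calls in this stage therefore does not bound the size of a difference. It was called in round and condensing spermatids (-3.10 and -2.71, edgeR adjusted p = 3.4e-08 and 9.54e-07). In round spermatids 0 of the 8 tested were called (0.0156% of 12804 genes) and 0 had an unadjusted p under 0.05, against 753 or 5.88% of all genes, and *Tpst2* had too few reads for the test. In condensing spermatids 0 of 9 were called (0.00728% of 13734 genes) and 1, *Pdilt*, had an unadjusted p under 0.05, against 870 or 6.33% of all genes. The DESeq2 Wald test also called 0 members in each stage.

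In round spermatids the log2 fold change of KO over wild type was 0.04 for *Clgn* (95% interval -0.13 to 0.21), 0.11 for *Calr3* (-0.11 to 0.32), -0.03 for *Pdilt* (-0.23 to 0.17) and 0.01 for *Ace* (-0.19 to 0.21). *Calr* at -0.08 (-0.26 to 0.10) and *Canx* at 0.05 (-0.13 to 0.23) were as close to 0. Over the 8 genes tested the intervals ran from -0.46 to 0.32, the outermost being those of *Tex101* and *Calr3*. Each gene's own interval bounds the difference these libraries leave possible for it. For the same 8 genes the intervals ran from -0.73 to 0.52 in pachytene spermatocytes and from -0.45 to 0.46 in condensing spermatids. *Tpst2*, tested in these other 2 stages, had intervals of -0.57 to 0.55 and -0.79 to 0.53.

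*Pdilt* in condensing spermatids was the nearest to a difference. It was at 166, 184 and 178 CPM in the KO libraries and at 155, 157 and 135 CPM in the wild-type libraries. The KO libraries all lay above the wild-type ones, which was so for 6.63% of all genes, and the log2 fold change of 0.23 (interval 0.01 to 0.46) had an unadjusted p of 0.0415 and an adjusted p of 0.772 in edgeR. Over the alternatives its adjusted p was at least 0.505.

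*Ace* in pachytene spermatocytes depended on 1 library. It was at 116, 124 and 119 CPM in the KO libraries, between the 179 and 189 CPM of wild-type replicates 1 and 2 and the 96.7 CPM of replicate 3. The log2 fold change was -0.29 (interval -0.73 to 0.15, edgeR adjusted p = 0.66), and without wild-type replicate 3 it was -0.50 and called (edgeR adjusted p = 0.0469). RNA of later germ cells moved with it. The 8 elongating spermatid genes summed to 5495, 5249 and 2220 CPM in the 3 wild-type libraries and to 2914, 3167 and 2908 CPM in the KO libraries, and 7 round spermatid genes to 494, 574 and 363 CPM against 409, 428 and 430.0 CPM. Both sums, like *Ace*, were higher in wild-type replicates 1 and 2 than in every KO library and lowest in wild-type replicate 3, and their part in the *Ace* values was not tested. *Calr* was at 488, 482 and 561 CPM in the KO libraries against 604, 709 and 543 CPM in wild type, and the groups overlapped (-0.21, interval -0.45 to 0.03, edgeR adjusted p = 0.656).

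Whether the effect of the KO differed between stages was tested as an interaction in the 18 libraries. For round against pachytene 0 of 9 genes were called (0% of 14479 genes) and 0 had an unadjusted p under 0.05, against 1050 or 7.25% of all genes. The values ran from -0.22 for *Pdilt* to 0.31 for *Ace*. For condensing against round 0 of 9 were called (0% of 14479 genes), and 0 had an unadjusted p under 0.05, against 407 or 2.81% of all genes. The values ran from -0.13 for *Canx* to 0.26 for *Pdilt*. The interaction of *Ace* in the earlier pair was called without replicate 3 of each group (0.70, edgeR adjusted p = 0.017).

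**Figure D4:**
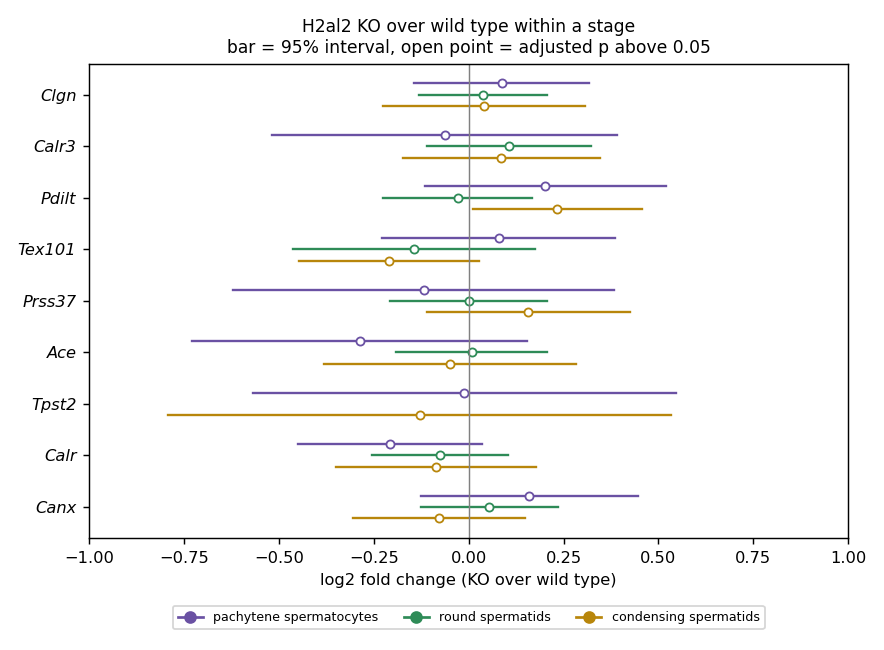
Log2 fold change of *H2al2* KO over wild type (x axis) for the 9 genes in pachytene spermatocytes (purple), round spermatids (green) and condensing spermatids (yellow), with bars for 95% intervals. All points are open, since no edgeR adjusted p was under 0.05, and *Tpst2* has no value in round spermatids. All intervals include 0 except that of *Pdilt* in condensing spermatids, at 0.01 to 0.46.

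Other proteins of the same pathway showed the background against which these genes moved. A further 14 genes are linked to ADAM3 or to the passage of sperm into the oviduct. Between wild-type pachytene spermatocytes and round spermatids 7 of them rose, 4 fell and 3 were not called. Their median log2 fold change was 0.40, against -0.02 over all genes. Of all genes 34.4% were called higher and 35.9% lower at this step. *Adam3* itself rose from 760 ± 83.8 to 1707 ± 106 CPM (SD, n = 3), by 1.19 on the log2 scale (edgeR adjusted p = 2.54e-06). *Adam1a*, whose protein pairs with ADAM2 with the help of calmegin, rose by 2.21 (edgeR adjusted p = 1.92e-06), whereas *Adam2* fell by 0.61 (edgeR adjusted p = 0.00162) and *Ly6k*, for a partner of TEX101, fell by 0.72 on the log2 scale (edgeR adjusted p = 0.000516). In condensing spermatids 0 of the 14 rose and 8 fell (28.3% and 21.8% of all genes), with a median of -0.47 against 0.04, and *Adam3* fell by 0.44 (edgeR adjusted p = 0.0117), a call that was lost without condensing replicate 1 (-0.40, edgeR adjusted p = 0.0506). The count of 8 ranged from 5 to 9 over the alternatives. In spermatozoa 12 fell and 1 rose (35.8% and 36.6% of all genes), with a median of -2.11 against 0.00 over all genes, and *Adam3* was at 283 CPM in both wild-type libraries. None of the 13 genes tested was called between genotypes in any stage by edgeR, against 0%, 0.0156% and 0.00728% of all genes. In each stage 0 of the 13 had an unadjusted p under 0.05, against 6.66%, 5.88% and 6.33% of all genes.

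The general folding genes of the endoplasmic reticulum were mostly lower or not called in wild-type round spermatids. Of 24 genes 23 were tested, and between pachytene spermatocytes and round spermatids 0 rose, 13 fell and 10 were not called (34.4% of all genes were called higher and 35.9% lower), with a median log2 fold change of -0.59 against -0.02 over all genes. *Uggt1*, whose product tags misfolded glycoproteins for another round with the lectin chaperones, fell by 1.11 (edgeR adjusted p = 4.01e-06). *Hspa5*, for BiP, at -0.25, and *Pdia3*, for the isomerase that works with calnexin and calreticulin, at -0.19, were not called (edgeR adjusted p = 0.105 and 0.193). *Hspa5* was called without wild-type pachytene replicate 3 (-0.32, edgeR adjusted p = 0.0381). In condensing spermatids 9 rose and 7 fell (28.3% and 21.8% of all genes), *Uggt1* rising by 0.84 (edgeR adjusted p = 0.000197), and the 7 that fell ranged from 3 to 8 over the alternatives. In spermatozoa 5 rose and 8 fell (36.6% and 35.8% of all genes). Between genotypes edgeR called 0 of 23 in each stage, against 0%, 0.0156% and 0.00728% of all genes. In pachytene, round and condensing cells 3, 1 and 4 of the 23 had an unadjusted p under 0.05. Of all genes 6.66%, 5.88% and 6.33% did. In condensing spermatids 0 of the 23 fitted values were above 0, with a median of -0.14 against -0.01 over all genes, while Sertoli cell genes were at 325 to 391 CPM in KO and 402 to 511 CPM in wild type. The part of other cells in these values was not tested.

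*Tpst1*, the other tyrosine sulfotransferase, moved opposite to *Tpst2*. It was at 63.9 ± 10.99 CPM in wild-type pachytene spermatocytes, at 117 ± 1.46 CPM in round and at 59.3 ± 7.54 CPM in condensing spermatids (SD, n = 3), a rise of 0.90 and then a fall of 0.96 on the log2 scale (edgeR adjusted p = 6.34e-05 and 0.000141). Of the 5 genes of tyrosine sulfation beside *Tpst2*, 1 rose and 1 fell at the first step, 3 rose and 1 fell at the second, and 2 rose and 1 fell in spermatozoa, where 70.3%, 50% and 72.4% of all genes were called. None of the 4, 3 and 5 tested in the 3 stages was called between genotypes by edgeR, against 0%, 0.0156% and 0.00728% of all genes. Of them 0, 0 and 1 had an unadjusted p under 0.05, against 6.66%, 5.88% and 6.33% of all genes.

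The genes most like each testis chaperone were listed over the 18 libraries of the 3 stages. The top values of a chaperone lay close together, so no difference between the chaperones is read from the names. Likeness was Pearson's r of log2 CPM among 8362 genes, libraries of a group share their stage, and the values are a description. *Clgn* was nearest to *Pabpc1* (r = 0.984), for a poly(A)-binding protein, *Glt8d1* (r = 0.982) and *Supt20* (r = 0.976). *Calr3* was nearest to *Asns* (r = 0.996), for asparagine synthetase, *Cdyl* (r = 0.996), for a chromodomain protein, and *Snn* (r = 0.996). *Pdilt* was nearest to *Lrp2bp*, *Ccdc81* and *St8sia3* (r = 0.996 each), the last for a sialyltransferase.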

How the data were processed

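RNA of fractionated mouse spermatogenic cells was sequenced as ribosomal RNA-depleted, stranded, paired-end libraries. For the files used here, the authors mapped the reads, without trimming, on mm10 (STAR 2.7.11b). HTSeq then counted uniquely placed reads that lay wholly in exons of the reverse strand. Each library was deposited by the authors as whole-number counts for every gene, not normalized. DESeq2 1.22.2 is also named in the submitters' processing notes. The 5 rows that name no gene held 34.6% to 57.7% of counted reads and were left out.

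Differences were tested on the counts with edgeR 4.0.16 (R 4.3.3) by the quasi-likelihood test, after TMM normalization and the filterByExpr filter, with Benjamini-Hochberg adjustment over all genes tested and calls at 0.05. Stage comparisons were fitted on the 9 libraries of a genotype, spermatozoa against condensing spermatids on 5 wild-type libraries, genotypes within each stage, and interactions on 18 libraries. Each fit was normalized on its own, and the procedure was checked on simulated counts with 200 genes changed. It recovered 71% to 99% of 2-fold changes, the lowest shares being those of the interactions (71% and 76%). The changed genes were drawn only from genes with many reads, so these shares do not extend to *Tpst2*. They were also far fewer than the genes called between stages. For genotype in pachytene spermatocytes 100% of 4-fold changes were recovered, yet the targeted gene (log2 fold change -2.75) was not called there. Unchanged genes made up 20 of 219 calls for genotype in condensing spermatids and 8 of 178 for the interaction of condensing with round. Levels in CPM were scaled over 21 libraries, and per kilobase of merged GENCODE M21 exons, known for 98.4% of genes. In that annotation *Pdilt*, *Ace* and *Calr3* overlap other genes, and the strand was used in counting. Replicates limit precision to the intervals given, which for *Tpst2* rest on 5 to 8 reads per round spermatid library.

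The genes and lists were chosen with earlier results of these data known. Named beyond the 9 genes are *Adam1a*, *Adam2*, *Adam3*, *Ly6k*, *Hspa5*, *Pdia3*, *Uggt1*, *Tpst1*, the targeted gene, and for 3 chaperones the 3 genes with the highest Pearson correlation of log2 CPM (prior count 2) among genes with a mean of at least 10 CPM. Single marker genes of spermatocytes, Sertoli cells, macrophages and the epididymis are named after their values were seen. Alternatives were the DESeq2 1.42.0 Wald test, its size factors, library size only, no filter, other sample sets, the replicate block, each library left out, and, added after seeing the data, the sum of wild-type round replicates 2 and 3, transcript length and a fit on all 11 wild-type libraries.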

Additional observations from a re-analysis of the deposited data

Results flagged for a closer look

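The single *H2al2* KO spermatozoa library entered no test, and 3 of the 9 genes lay there above both wild-type spermatozoa libraries. *Tpst2* was at 37.8 CPM against 20.3 and 16.6 CPM, *Calr* at 391 CPM against 251 and 278 CPM, and *Canx* at 406 CPM against 255 and 304 CPM. Another 5 lay below both wild-type libraries. *Ace* was at 129 CPM against 340.3 and 303 CPM, *Clgn* at 92.0 CPM against 135 and 120.3 CPM, *Prss37* at 12.3 CPM against 17.6 and 14.5 CPM, *Tex101* at 3.69 CPM against 6.76 and 7.76 CPM, and *Pdilt* at 19.7 CPM, close to the lower of 22.4 and 19.8 CPM. The 7 macrophage genes summed to 3209 CPM in that library and to 1128 to 1184 CPM in wild-type spermatozoa, and 8 epididymis genes to 556 CPM against 1814 to 1928 CPM. The 8 elongating spermatid genes summed to 10872 CPM against 29350 to 32925 CPM. Their part in these levels was not tested, and with 1 library the genotype and the library cannot be told apart.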

How the results depend on the processing

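Alternatives gave 1200 values for single genes. Direction and side of the threshold were the same in 1128, 22 lost a call, 19 gained one and 31 changed sign, of which 0 were called in either setting. The count of members called moved by over 1.5 times in 2 comparisons. Leaving out 1 library at a time gave 0 to 1 between genotypes in pachytene spermatocytes, 1 being *Ace* without wild-type replicate 3, and leaving out 1 replicate number gave 0 to 1 for the interaction of round with pachytene, again *Ace* without replicate 3. The cause was not tested.

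Values near 0 turned sign when 1 library was left out. Between genotypes in pachytene spermatocytes *Calr3* then ranged from -0.25 to 0.14, *Tex101* from -0.020 to 0.18, *Prss37* from -0.33 to 0.050 and *Tpst2* from -0.23 to 0.10. In round spermatids *Clgn* ranged from -0.028 to 0.080, *Pdilt* from -0.068 to 0.050, *Prss37* from -0.054 to 0.065, *Ace* from -0.062 to 0.10 and *Canx* from -0.0047 to 0.11. In condensing spermatids *Clgn* ranged from -0.061 to 0.10 and *Ace* from -0.16 to 0.12. From round to condensing spermatids *Ace* ranged from -0.077 to 0.15 in wild type and from -0.076 to 0.14 in KO, and *Canx* from -0.032 to 0.089 in KO. *Prss37* between genotypes in round spermatids, at -0.00017, was 0.0014 with the DESeq2 Wald test, 0.0095 without the filter, 0.00020 with the replicate block, 0.0060 in the fit of all 18 libraries and 0.030 with wild-type round replicates 2 and 3 summed. Where a spermatozoa library was left out, the lone one was assumed to vary like the condensing libraries.

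Levels per kilobase in round spermatids moved by more than 1 SD. With the longest GENCODE transcript as the length they were 199 CPM per kb for *Clgn*, 135 for *Pdilt*, 26.2 for *Tex101*, 152 for *Ace*, 0.531 for *Tpst2*, 185 for *Calr* and 45.0 for *Canx*, so that *Calr* stood above *Ace*. With library size only they were 181 for *Clgn*, 119 for *Pdilt*, 132 for *Ace*, 132 for *Calr* and 38.7 for *Canx*. The planned lengths of RefSeq transcripts were not run. Over all genes the median became -0.20 and 0.11 under library size only in the 2 wild-type stage comparisons, and 9 and 4 members were called.

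Correlations of the deviations of same-numbered replicates lay between -0.159 and 0.209 between genotypes and between -0.181 and 0.271 between stages. They were not above 0.1 for every pair in any comparison, so the numbers were not read as pairs. With the replicate block 8 and 5 members were called in the wild-type stage comparisons, 9 in spermatozoa, where *Calr* was called lower (-0.28, edgeR adjusted p = 0.0273), and 0 between genotypes in each stage. *Tpst2*, from 5 to 8 reads per round spermatid library, was the gene most limited by depth.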
